A study of Homo sapiens with 8 samples.

Results

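The data described here were the binding peaks at 10 genes, namely the zinc-finger transcription factor genes GLIS1, GLIS2, GLIS3, GLI1, GLI2 and GLI3, the Hedgehog pathway genes PTCH1 and SUFU, and the BMP ligand genes BMP2 and BMP4. They were taken from a ChIP-seq comparison of the leukemia fusion proteins AML1-ETO and ETO2-GLIS2. In ChIP-seq, DNA fragments precipitated together with a protein are sequenced, and places where they pile up are called as peaks. A peak belonged to a gene when its summit, the position of highest signal, lay in the gene body or within 20 kb of it. By this rule the 10 genes, of 20163 protein-coding genes annotated, held 302 of the 235023 peaks in 4 peak lists. They held 85 of 70833 peaks of AML1-ETO at 12 h, 120 of 105769 at 48 h, 42 of 28325 peaks of ETO2-GLIS2 at 12 h and 55 of 30096 at 48 h.

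Both proteins were expressed in U937 cells, a human line of monoblast type that was established from a histiocytic lymphoma. Each stable line was derived from a single cell, clone #4 for AML1-ETO and clone #14 for ETO2-GLIS2, so that protein and clone cannot be told apart. Each carried a retroviral, Tet-inducible cDNA with an HA tag at the N-terminus, and all cells received doxycycline at 5 µg/ml for 12 or 48 h before an anti-HA precipitation. The 8 libraries of the series were 1 ChIP and 1 input library for each protein and time, so differences between lists have no replicate check, and no p-value is given. Peak lists hold no expression values, so the identity of the cells was not checked against markers, and sequencing depth was not analysed here. A longer list can come from a deeper library, a better precipitation or wider binding, and these cannot be told apart.

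In the Hedgehog pathway, a secreted ligand binds the receptor PTCH1 and relieves its block on the membrane protein SMO, after which the GLI zinc-finger factors change the transcription of their targets. GLI1 acts as an activator, GLI3 largely as a repressor, GLI2 mostly as an activator, and SUFU holds GLI proteins inactive in the cytoplasm. PTCH1 and GLI1 are themselves classical GLI targets. The GLIS factors share related zinc fingers with the GLI family, and BMP2 and BMP4 are secreted ligands that signal through SMAD proteins. AML1-ETO carries the DNA-binding Runt domain of RUNX1 fused to RUNX1T1, and ETO2-GLIS2 joins CBFA2T3 to the zinc fingers of GLIS2. Both families of binding domain thus have short preferred letters, which were looked for at the summits of the 10 genes.

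The sequences that the main peaks sit on are given here, since the results on GLIS2, GLIS3, PTCH1, GLI3 and the region between SUFU and TRIM8 refer back to them. Each is the GRCh37 sequence of 200 bp around a summit (196 bp for SUFU downstream, shortened at an annotated UTR), 5′ to 3′ on the strand of the named gene, in lower case. Capitals mark matches, on either strand, to the Runt letters TGTGGT or TGCGGT, the GLIS core TGGGGGG, the GLI letters TGGGTGGTC, the ETS letters CCGGAAGT, the E-box CAGCTG, or the AP-1 letters TGAGTCA or TGACTCA. No 2 marked matches overlap. The windows at PTCH1 start and PTCH1 intron were picked for their matches after these had been seen.
GLIS2 upstream: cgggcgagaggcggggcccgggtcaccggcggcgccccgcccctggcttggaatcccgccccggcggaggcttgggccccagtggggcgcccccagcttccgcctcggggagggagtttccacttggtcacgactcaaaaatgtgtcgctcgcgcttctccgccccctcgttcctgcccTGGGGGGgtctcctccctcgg
GLIS3 start: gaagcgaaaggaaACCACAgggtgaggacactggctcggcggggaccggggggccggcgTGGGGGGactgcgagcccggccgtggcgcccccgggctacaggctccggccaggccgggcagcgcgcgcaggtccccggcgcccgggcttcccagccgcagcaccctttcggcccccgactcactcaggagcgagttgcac
GLI3 intron: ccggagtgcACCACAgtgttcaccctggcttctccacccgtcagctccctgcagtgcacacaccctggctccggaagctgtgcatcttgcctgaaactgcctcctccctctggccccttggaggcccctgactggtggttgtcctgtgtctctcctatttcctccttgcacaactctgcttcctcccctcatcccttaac
PTCH1 strongest: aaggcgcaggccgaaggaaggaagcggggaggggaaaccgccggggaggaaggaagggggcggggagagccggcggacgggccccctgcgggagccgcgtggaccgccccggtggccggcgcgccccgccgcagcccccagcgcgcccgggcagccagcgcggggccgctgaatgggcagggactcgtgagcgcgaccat
PTCH1 start: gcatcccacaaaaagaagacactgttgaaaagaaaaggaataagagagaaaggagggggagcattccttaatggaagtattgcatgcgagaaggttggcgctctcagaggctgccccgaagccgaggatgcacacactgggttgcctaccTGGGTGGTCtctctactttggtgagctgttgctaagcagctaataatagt
PTCH1 intron: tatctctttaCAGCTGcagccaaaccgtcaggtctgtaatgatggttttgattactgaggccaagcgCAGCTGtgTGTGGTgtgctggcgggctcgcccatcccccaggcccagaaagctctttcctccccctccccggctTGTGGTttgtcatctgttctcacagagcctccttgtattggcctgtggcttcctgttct
SUFU downstream: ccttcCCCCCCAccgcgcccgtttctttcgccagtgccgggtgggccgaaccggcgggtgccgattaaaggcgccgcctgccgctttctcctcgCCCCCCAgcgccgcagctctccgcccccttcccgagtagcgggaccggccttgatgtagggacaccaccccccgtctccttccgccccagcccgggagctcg
In coordinates, GLIS2 upstream is chr16:4357786-4357985 on the plus strand, centred on the ETO2-GLIS2 summit at 12 h. GLIS3 start is chr9:4298101-4298300 on the minus strand, centred on the AML1-ETO summit at 48 h. The others are centred on ETO2-GLIS2 summits at 48 h. GLI3 intron is chr7:42135526-42135725, PTCH1 strongest is chr9:98273369-98273568, PTCH1 start is chr9:98271671-98271870 and PTCH1 intron is chr9:98224987-98225186, all on the minus strand. SUFU downstream is chr10:104402064-104402259 on the plus strand, next to the start of TRIM8.

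Most of the 10 genes held a peak, as most genes of the genome did. AML1-ETO had a peak at 8 of the 10 genes at 12 h and at 9 at 48 h, against 77.6% and 80.3% of all protein-coding genes. ETO2-GLIS2 had a peak at 7 of the 10 at each time, against 66.4% of all genes at 12 h and 66.0% at 48 h. A peak within 1 kb of an annotated start site of the gene was called for 6 of the 10 genes with AML1-ETO at 12 h and 7 at 48 h, where the shares of all genes were 54.0% and 59.8%. With ETO2-GLIS2 it was called for 6 of the 10 at each time, where the shares of all genes were 42.8% at 12 h and 45.7% at 48 h. With 10 genes these counts are close to the shares over all genes. Peaks per 100 kb of gene and flanks were likewise close to the value over all genes. They were 4.29 against 4.65 for AML1-ETO at 12 h, 6.06 against 7.03 at 48 h, 2.12 against 2.1 for ETO2-GLIS2 at 12 h and 2.78 against 2.36 at 48 h.

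The genes differed widely among themselves. SUFU held 35 and 53 AML1-ETO peaks and 19 and 21 ETO2-GLIS2 peaks at 12 and 48 h, the most in every list. At the other end BMP4 had none in any list, and BMP2 and GLI2 had peaks of AML1-ETO only. GLIS3, the longest of the genes with a body of 524 kb, held 0 and 1 AML1-ETO peaks and 2 ETO2-GLIS2 peaks at each time. Per 100 kb, SUFU was denser than 92.7% to 93.9% of all genes in each of the lists. GLIS2 was denser than 95.1% and 89.0% of all genes for AML1-ETO at 12 and 48 h, and than 76.3% and 92.6% for ETO2-GLIS2. GLI1 was denser than 68.7% and 71.0% for AML1-ETO and than 94.2% and 93.6% for ETO2-GLIS2. These densities include the 20 kb flanks, which hold other genes. In the gene body of GLI1 lay 1 of 4 and 1 of 7 AML1-ETO summits and 3 of 6 and 2 of 7 ETO2-GLIS2 summits. For GLIS2 these were 3 of 15 and 10 of 17, and 2 of 3 and 4 of 8.

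**Figure D1:**
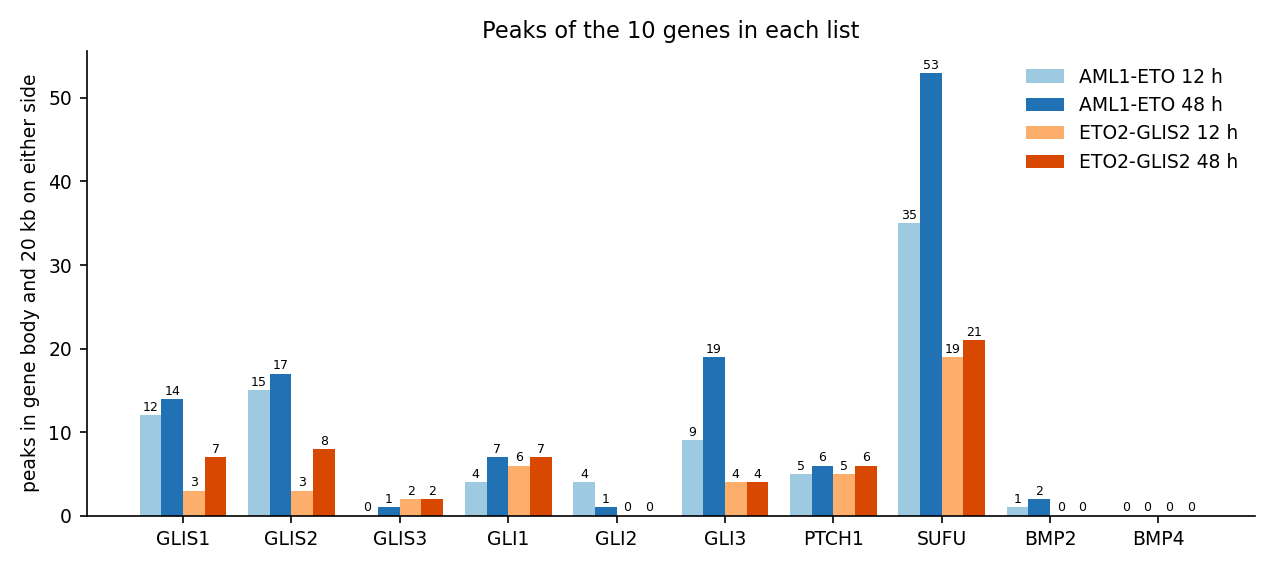
Number of peaks (vertical axis) with the summit in the gene body or within 20 kb, for each of the 10 genes (horizontal axis) in the 4 lists (bar colours), 1 ChIP library per list. SUFU stands highest with 53 AML1-ETO peaks at 48 h, and BMP4 is at 0 throughout.

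Each peak was ranked by its −log10 q within its own list, 1 being the strongest, and the rank was also expressed in percent of the list. Tied peaks shared the best rank. The median peak of the 10 genes was of ordinary strength. Its rank lay at 47.4% for AML1-ETO at 12 h, 51.5% at 48 h, 52.8% for ETO2-GLIS2 at 12 h and 54.1% at 48 h, where the median of each whole list, with ties, lay between 48.2% and 48.9%. A few peaks were very strong. A peak within the strongest 1% of its list was found at 2 of the 10 genes in each list, against 4.60% of all genes for AML1-ETO at 12 h, 7.84% at 48 h, 2.18% for ETO2-GLIS2 at 12 h and 2.65% at 48 h. For AML1-ETO these were PTCH1 and SUFU at both times. For ETO2-GLIS2 they were GLIS2 and SUFU at 12 h and PTCH1 and SUFU at 48 h. In every list the SUFU peak of this strength had its summit beyond the end of the gene, near the start of TRIM8. No peak with its summit inside SUFU reached the strongest 1%, and the closest stood at 1.03%, in the AML1-ETO list of 48 h. The GLIS2 peak also lay outside its gene, upstream. Peaks in the flanks count in the shares of all genes as well. The changes between times were small moves across the line, since GLIS2 went from 0.981% to 1.13% and PTCH1 from 1.59% to 0.954%.

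**Figure D2:**
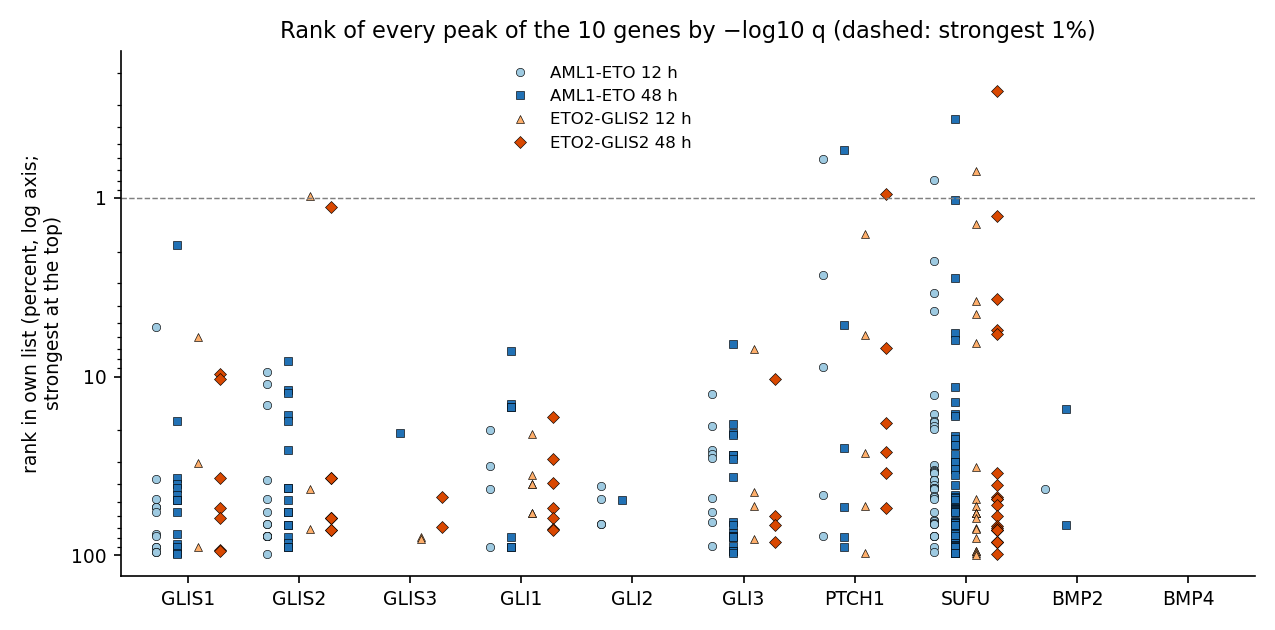
Rank of every peak of the 10 genes in percent of its own list (vertical log axis, strongest at the top), by gene and list (symbols). Points above the dashed line at 1% belong to GLIS2, PTCH1 and the SUFU window, and the strongest of all is the ETO2-GLIS2 peak of the SUFU window at 48 h, at 0.253%.

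When overlapping peaks of the 4 lists were merged, the 302 peaks formed 150 sites. Of these, 14 (9.33%, against 9.87% of the 129914 sites of the whole series) were occupied in all 4 lists, namely 5 at SUFU, 2 each at GLIS1, GLIS2, GLI1 and PTCH1, and 1 at GLI3. Only AML1-ETO peaks were held by 108 sites (72.0%, against 75.9% of all sites), only ETO2-GLIS2 peaks by 13 (8.67%, against 6.41%) and peaks of both by 29 (19.3%, against 17.7%). The AML1-ETO lists were the longer ones, so more sites of AML1-ETO alone were found throughout the genome as well. In both ETO2-GLIS2 lists and in neither AML1-ETO list there was 1 site (0.667%, against 0.212%), an intronic SUFU site with ranks of 94.4% and 60.0%. In both AML1-ETO lists and in neither ETO2-GLIS2 list there were 17 (11.3%, against 13.9%).

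GLIS2 encodes a Krüppel-like zinc-finger factor, and its zinc fingers form the DNA-binding end of ETO2-GLIS2. The gene lies at chr16:4364762-4389598 on the plus strand. Among the shared sites, the one where ETO2-GLIS2 outranked AML1-ETO most clearly lay upstream of it. At 12 h the ETO2-GLIS2 peak chr16:4356552-4358345, 1794 bp wide, ranked 278 (0.981%) with a fold enrichment over local background of 78.3. At 48 h the peak chr16:4356552-4358704, 2153 bp wide, ranked 339 (1.13%) with a fold enrichment of 78.8. The summits lay 8182 and 8200 bp upstream of the start of the MANE transcript, the reference transcript agreed by Ensembl and NCBI, and within 1 kb of the start of an unnamed lncRNA gene, ENSG00000288935.

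AML1-ETO had only moderate or weak peaks at the same place. At 12 h it had 2 peaks there, of 1063 bp at rank 26953 (38.1%) with a fold enrichment of 4.86, and of 164 bp at rank 55278 (78.0%). At 48 h it had a single peak of 2117 bp at rank 18725 (17.7%) with a fold enrichment of 7.28, its summit 207 bp from that of ETO2-GLIS2. The site was thus called in all 4 lists but was strong only in those of ETO2-GLIS2. In the plot of shared peaks this GLIS2 site lies farthest to the upper left. The sequence around its summit, printed as GLIS2 upstream, held 74.0% G and C and a GLIS core match at bases 180 to 186, near the edge, and no Runt match. The window at the ETO2-GLIS2 summit of 48 h, 18 bp away, ended within that match and held none of the letters searched.

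At the GLIS2 start site itself the order of ranks in percent of the list was the other way round at both times. By rank number it was so at 12 h only, and the AML1-ETO lists are the longer ones. AML1-ETO had a peak of 2272 bp at rank 7767 (11.0%) at 12 h and of 4044 bp at rank 12579 (11.9%) at 48 h, with summits 234 and 285 bp upstream. ETO2-GLIS2 had narrower peaks of 488 bp at rank 11991 (42.3%) and of 674 bp at rank 11154 (37.1%), with summits 534 and 181 bp upstream. At 48 h a further ETO2-GLIS2 peak of 747 bp lay in intron 1 at the same rank. The strongest AML1-ETO peak of the GLIS2 window was downstream, beside PAM16, a gene for a mitochondrial import subunit that overlaps CORO7-PAM16, and a weaker one next to it ranked below the start-site peak. These 2 peaks ranked 6628 (9.36%) and 10230 (14.4%) at 12 h, and 8639 (8.17%) and 12966 (12.3%) at 48 h. ETO2-GLIS2 had 2 peaks there at 48 h only, with ranks of 61.7% and 72.0%. Of the 17 AML1-ETO peaks at 48 h, 8 lay in intron 1 with no counterpart at 12 h, the strongest of them at rank 17486 (16.5%). Of the 3 ETO2-GLIS2 peaks at 12 h, the remaining one lay in intron 1 at rank 20301 (71.7%).

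The ETO2-GLIS2 cells carry a cDNA with GLIS2 sequence and the AML1-ETO cells do not, so peaks over GLIS2 exons were set against exon borders. None of the 6 coding exons met a peak in either AML1-ETO list or in the ETO2-GLIS2 list at 12 h, and 1 did in the ETO2-GLIS2 list at 48 h. That peak, chr16:4386900-4387356, lay inside the last exon, chr16:4386726-4389596. It started 174 bp after the exon did and ended 166 bp before the end of the coding sequence, and covered 29.1% of the coding bases. A further peak, chr16:4388401-4388748, lay in the untranslated part of the same exon. Both were weak, at rank 18559 (61.7%), and neither edge coincided with an exon border. For comparison, SUFU and PTCH1, which are in neither fusion, had 26.2% and 6.59% of their coding bases in ETO2-GLIS2 peaks at 48 h. The part of the introduced cDNA in the last-exon peaks was not tested.

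GLIS1, a related zinc-finger factor gene at chr1:53971910-54204837 on the minus strand, had 12 and 14 AML1-ETO peaks and 3 and 7 ETO2-GLIS2 peaks, none of them within 1 kb of a start site. A site in intron 2, about 57.0 kb downstream of the MANE start, was the strongest in every list. Its AML1-ETO peaks ranked 3743 (5.28%) and 1935 (1.83%), and its ETO2-GLIS2 peaks 1690 (5.97%) and 2909 (9.67%), at 12 and 48 h. The summits of the proteins lay 10 bp apart at 12 h and at the same base, 54147799, at 48 h. A second common site lay beyond the 3′ end of the gene, about 240 kb from its start. There AML1-ETO ranked at 53.5% and 17.7%, ETO2-GLIS2 at 30.5% and 10.3%, and the rank was better at 48 h for both. The next strongest GLIS1 peaks, all in introns, were at 37.2% and 48.2% for AML1-ETO at 12 h, 36.9% for AML1-ETO at 48 h and 37.1% for ETO2-GLIS2 at 48 h. The last of the 3 ETO2-GLIS2 peaks at 12 h lay downstream of the gene at 90.1%.

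GLIS3, known for its role in pancreatic beta cells and thyroid, lies at chr9:3824127-4348392 on the minus strand and was nearly empty. Its peaks gathered in intron 1 of the MANE transcript, 1867 to 2599 bp downstream of its start, close to the start of a shorter transcript. ETO2-GLIS2 had peaks there of 297 and 360 bp at ranks 22465 (79.3%) and 22872 (80.7%) at 12 h, and of 353 bp at rank 20889 (69.4%) at 48 h. AML1-ETO had none at 12 h and 1 of 877 bp at rank 21877 (20.7%) at 48 h, which overlapped that of ETO2-GLIS2. The remaining ETO2-GLIS2 peak at 48 h lay in intron 2 at rank 14101 (46.9%). All 4 summit windows near the start held a GLIS core match, and that of AML1-ETO, printed as GLIS3 start, also held a Runt match at bases 14 to 19.

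**Figure D3:**
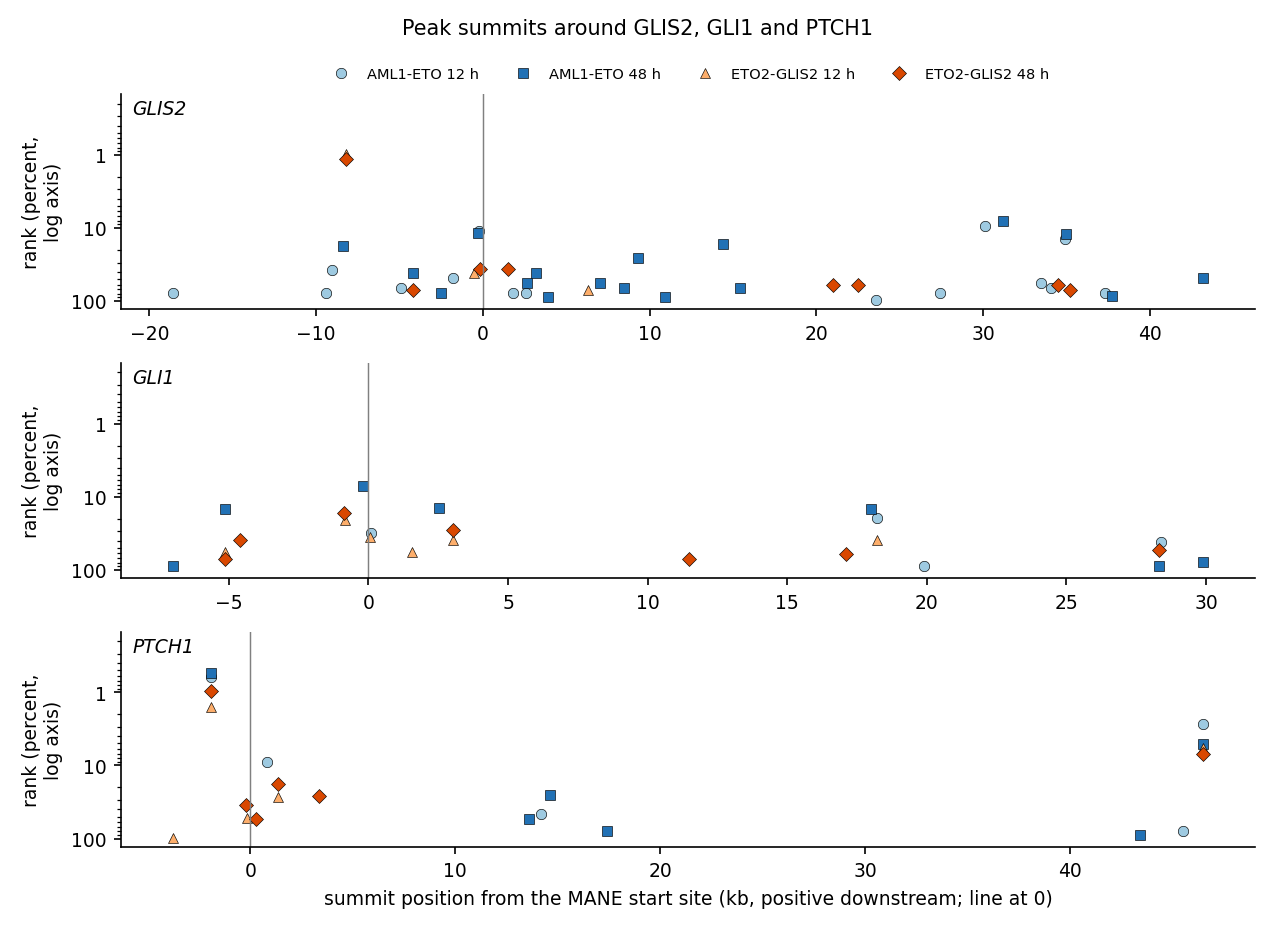
Summits of all peaks around GLIS2, GLI1 and PTCH1, by distance from the MANE start site in kb (horizontal axis, positive downstream) and rank in percent of the own list (vertical log axis, strongest at the top). The ETO2-GLIS2 points upstream of GLIS2 (0.981% and 1.13%) lie well above the AML1-ETO points beside them, while at PTCH1 the strongest points of the 4 lists coincide, 1908 to 1921 bp upstream of the start.

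GLI1, the activator that Hedgehog signalling induces, lies at chr12:57853568-57866051 on the plus strand. Its start site was bound in all 4 lists. AML1-ETO had a peak of 1141 bp at rank 22379 (31.6%) at 12 h and of 1895 bp at rank 7648 (7.23%) at 48 h, with summits 89 bp downstream and 200 bp upstream of the start. ETO2-GLIS2 had 2 peaks at 12 h, of 516 bp at rank 5949 (21.0%) with the summit 852 bp upstream and of 692 bp at rank 10064 (35.5%) with the summit 49 bp downstream. At 48 h it had a single peak of 1974 bp at rank 5046 (16.8%) over the same stretch, with its summit 867 bp upstream. The regions overlapped, but at 48 h the strongest point differed by 667 bp between the proteins.

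Further peaks at GLI1 lay in intron 1, the stronger of them near the start of the unnamed gene ENSG00000287200. There ETO2-GLIS2 had ranks of 39.7% and 58.0% at 12 h and 28.8% at 48 h, and AML1-ETO had a peak at 48 h only, at rank 15140 (14.3%). Others lay 5 to 7 kb upstream near INHBE, which encodes an inhibin beta subunit, where AML1-ETO had ranks of 14.7% and 90.0% at 48 h and no peak at 12 h, and ETO2-GLIS2 had 58.0% at 12 h and 39.3% and 71.4% at 48 h. Downstream peaks stood beside ARHGAP9 and MARS1. The strongest of these were AML1-ETO peaks at rank 14116 (19.9%) at 12 h and rank 15506 (14.7%) at 48 h, and those of ETO2-GLIS2 ranked between 39.7% and 61.7%. A weak ETO2-GLIS2 peak in exon 12 at 48 h (72.0%) had no counterpart in the other lists.

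GLI2 lies at chr2:121493199-121750229 on the plus strand and had peaks of AML1-ETO only. At 12 h there were 4. They ranked 47259 (66.7%) near the start, 284 bp upstream of the nearest annotated start, 47259 again in intron 6, and 34326 (48.5%) and 29053 (41.0%) in exon 14. At 48 h a single peak remained, in exon 14 at rank 51680 (48.9%), and it overlapped the last of these. In the AML1-ETO lists shortened to the 28325 strongest peaks, the length of the shortest list, GLI2 had no peak.

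GLI3 lies at chr7:42000547-42303699 on the minus strand. The strongest region in every list was in intron 3, about 140 to 141 kb downstream of the MANE start. AML1-ETO had a peak of 4438 bp at rank 8886 (12.5%) at 12 h and of 3633 bp at rank 6957 (6.58%) at 48 h. ETO2-GLIS2 had narrower peaks of 854 bp at rank 1978 (6.98%) and of 458 bp at rank 3090 (10.3%). At 48 h the summits of the proteins were 30 bp apart, and at 12 h 951 bp. The window printed as GLI3 intron held a Runt match near its edge, at bases 10 to 15. The windows of ETO2-GLIS2 at 12 h and AML1-ETO at 48 h, centred about 30 bp away, held none of the letters. That of AML1-ETO at 12 h held Runt and E-box matches. AML1-ETO had a row of further peaks around this region, at 25.6% and 27.1% at 12 h and 18.3% and 20.6% at 48 h, and another in intron 14 at rank 13334 (18.8%) at 12 h.

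Near the MANE start of GLI3, ETO2-GLIS2 had a peak at rank 12456 (44%) at 12 h and at rank 25285 (84.0%) at 48 h, and AML1-ETO had a peak at 48 h only, at rank 38362 (36.3%). In intron 3, about 110 kb downstream of the start, AML1-ETO had peaks at 28.6% and 21.3%, and ETO2-GLIS2 had a peak at 12 h only, at 52.8%. The rest of the ETO2-GLIS2 peaks ranked 22872 (80.7%) at 12 h and 18080 (60.1%) and 20458 (68.0%) at 48 h, all in intron 3.

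**Figure D4:**
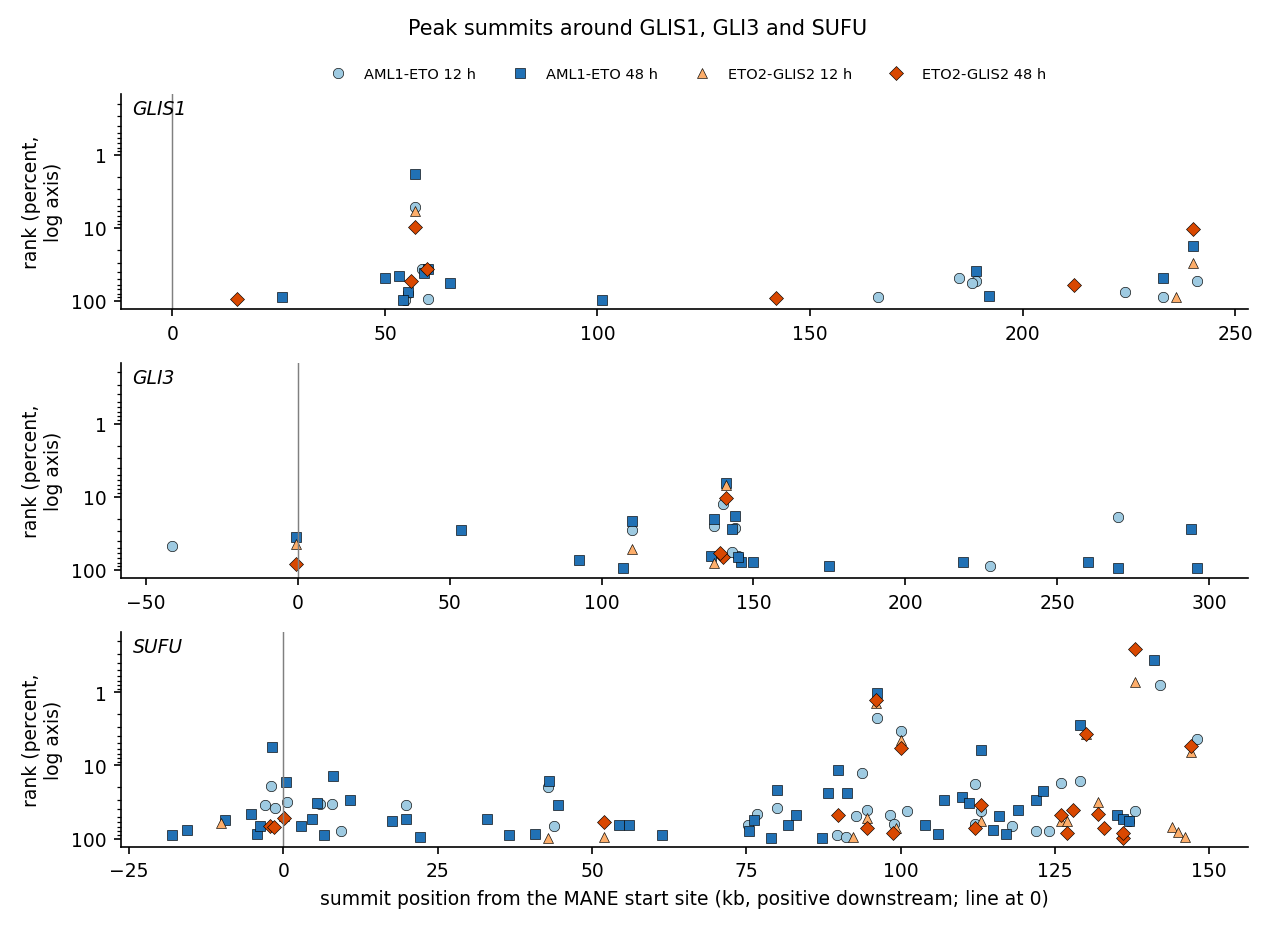
Summits of all peaks around GLIS1, GLI3 and SUFU, by distance from the MANE start site in kb (horizontal axis, positive downstream) and rank in percent of the own list (vertical log axis, strongest at the top). Each gene had a site inside an intron that was the strongest within the gene body in all lists, about 57.0 kb (GLIS1), 141 kb (GLI3) and 96.0 kb (SUFU) from the start, and the SUFU window held stronger points beyond the gene end, near TRIM8.

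PTCH1, the Hedgehog receptor gene at chr9:98205262-98279339 on the minus strand, held 5 peaks of each protein at 12 h and 6 of each at 48 h. The strongest lay about 1.9 kb upstream of the MANE start, in an intron of longer transcripts. For AML1-ETO it ranked 431 (0.608%) at 12 h with a width of 2821 bp, and 573 (0.542%) at 48 h, when it spanned 9017 bp, chr9:98266480-98275496. For ETO2-GLIS2 it ranked 449 (1.59%) with a width of 1344 bp and 287 (0.954%) with a width of 1111 bp. The summits of both proteins fell on the same base, 98273456 at 12 h and 98273469 at 48 h. The sequence there, printed as PTCH1 strongest, held 79.0% G and C and none of the letters searched.

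A second site shared by all 4 lists lay in intron 15, about 46.5 kb downstream of the MANE start and 898 to 924 bp upstream of the start of a short transcript. AML1-ETO ranked 1903 (2.69%) and 5407 (5.11%) there, and ETO2-GLIS2 1658 (5.85%) and 2077 (6.90%), at 12 and 48 h. The summits of the proteins were 14 bp apart at 12 h and 8 bp at 48 h. All 4 summit windows held Runt and E-box matches. In the sequence printed as PTCH1 intron, E-box matches stood at bases 11 to 16 and 68 to 73 and Runt matches at bases 76 to 81 and 142 to 147.

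At the PTCH1 start itself ETO2-GLIS2 had small separate peaks. The closest measured 455 bp at rank 14959 (52.8%) at 12 h and 263 bp at rank 10415 (34.6%) at 48 h, with summits 174 and 223 bp upstream. Both summit windows held the GLI letters, at bases 151 to 159 of the sequence printed as PTCH1 start, and these were the only ETO2-GLIS2 peaks among the 10 genes to hold them. In the whole ETO2-GLIS2 lists 0.205% and 0.236% of summit windows held these letters. Among AML1-ETO peaks of the 10 genes, 1 window held them at 12 h, at GLIS1, and 1 at 48 h, at GLIS2. In the whole AML1-ETO lists the shares were 0.182% and 0.178%. At the PTCH1 start, AML1-ETO covered the bases of these ETO2-GLIS2 peaks with wide peaks. Their summits were 1002 and 1698 bp away, the 12 h peak being of 4444 bp at rank 6255 (8.83%). ETO2-GLIS2 also had a peak just downstream of the start in both lists, of 2487 bp at rank 7558 (26.7%) and of 1960 bp at rank 5447 (18.1%).

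The remaining PTCH1 peaks were minor. ETO2-GLIS2 had 1 at 97.3% at 12 h near the start of ENSG00000271659, and 2 at 48 h, at 26.3% near the start of ENSG00000271155 and at 54.1% in exon 1. AML1-ETO had peaks in intron 2 near the start of ENSG00000271314, at 45.8% at 12 h and at 25.2% and 54.0% at 48 h, and weak peaks at 78.0% at 12 h and at 79.1% and 90.0% at 48 h. Every ETO2-GLIS2 peak at PTCH1 overlapped an AML1-ETO peak, 5 of 5 at 12 h and 6 of 6 at 48 h. At 48 h, 5 of the 6 fell within the single 9017 bp AML1-ETO peak, so they are not 5 separate shared sites.

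SUFU, the inhibitor that restrains GLI proteins, lies at chr10:104263729-104393292 on the plus strand. The strongest peak of its window was not in SUFU but beyond its 3′ end, at the start of TRIM8, a gene for a RING-finger ubiquitin ligase. For ETO2-GLIS2 it ranked 201 (0.710%) at 12 h and 76 (0.253%) at 48 h, with widths of 5831 and 6079 bp, and both summits fell on base 104402164. For AML1-ETO it ranked 559 (0.789%) with a width of 6708 bp and 383 (0.362%) with a width of 14167 bp, its summits 3722 and 2611 bp farther downstream. The sequence under the ETO2-GLIS2 summit, printed as SUFU downstream, held a pair of GLIS core matches on the opposite strand, at bases 6 to 12 and 95 to 101.

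Within SUFU the strongest site was in intron 8, about 96.0 kb downstream of the start. It ranked 1599 (2.26%) and 1086 (1.03%) for AML1-ETO, with widths of 2594 and 10478 bp, and 397 (1.40%) and 380 (1.26%) for ETO2-GLIS2, with widths of 2092 and 1252 bp. The summits of the proteins were 34 bp apart at 12 h and 69 bp at 48 h. About 4 kb farther on, AML1-ETO at 12 h had a peak at rank 2410 (3.40%), and ETO2-GLIS2 had peaks at ranks 1272 (4.49%) and 1739 (5.78%). At the 3′ end of SUFU, AML1-ETO had a peak of 9873 bp at rank 2972 (2.81%) at 48 h, and ETO2-GLIS2 had peaks at ranks 1063 (3.75%) and 1111 (3.69%). The last of the described sites was thus strong in the ETO2-GLIS2 lists at both times and in the AML1-ETO list at 48 h, and ranked 16.2% for AML1-ETO at 12 h.

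The SUFU start site was bound in all 4 lists, far below the sites just described. AML1-ETO ranked 22201 (31.3%) and 17518 (16.6%), and ETO2-GLIS2 13757 (48.6%) and 15688 (52.1%). The other SUFU peaks were many and spread widely in rank. Of all peaks in the window, 11 of 35 and 28 of 53 AML1-ETO peaks and 12 of 19 and 11 of 21 ETO2-GLIS2 peaks were in the weaker 50% of their list.

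BMP2, a secreted ligand of the TGF-beta family, lies at chr20:6748333-6760893 on the plus strand and had called peaks of AML1-ETO only. At its start AML1-ETO had a peak of 510 bp at rank 30094 (42.5%) at 12 h and of 1110 bp at rank 16034 (15.2%) at 48 h, with summits 29 bp downstream and 118 bp upstream. A further peak in intron 1 ranked 71712 (67.8%) at 48 h. Within the 28325 strongest peaks the BMP2 start kept its peak at 48 h and lost it at 12 h. BMP4, a close relative of BMP2 at chr14:54416454-54425479 on the minus strand, had no peak within 20 kb in any list.

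The proteins shared sites at these genes to about the extent that they did elsewhere. Of the ETO2-GLIS2 peaks, 71.4% at 12 h (30 of 42, exact 95% interval 55.4 to 84.3%) and 81.8% at 48 h (45 of 55, 69.1 to 90.9%) overlapped an AML1-ETO peak of the same time, against 74.5% and 83.4% of the whole lists. Of the AML1-ETO peaks, 30.6% (26 of 85, 21.0 to 41.5%) and 20.8% (25 of 120, 14 to 29.2%) overlapped an ETO2-GLIS2 peak, against 26.2% and 17.8%. All 4 intervals contain the share of the whole list. With lists of equal length, the AML1-ETO shares were 60.6% and 55.9%. The shares of the whole lists at that length were not computed. The median distance between the summits of shared peaks was 338.5 bp at 12 h and 521 bp at 48 h, and 12 ETO2-GLIS2 peaks at each time had their summit within 100 bp of the AML1-ETO summit.

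**Figure D5:**
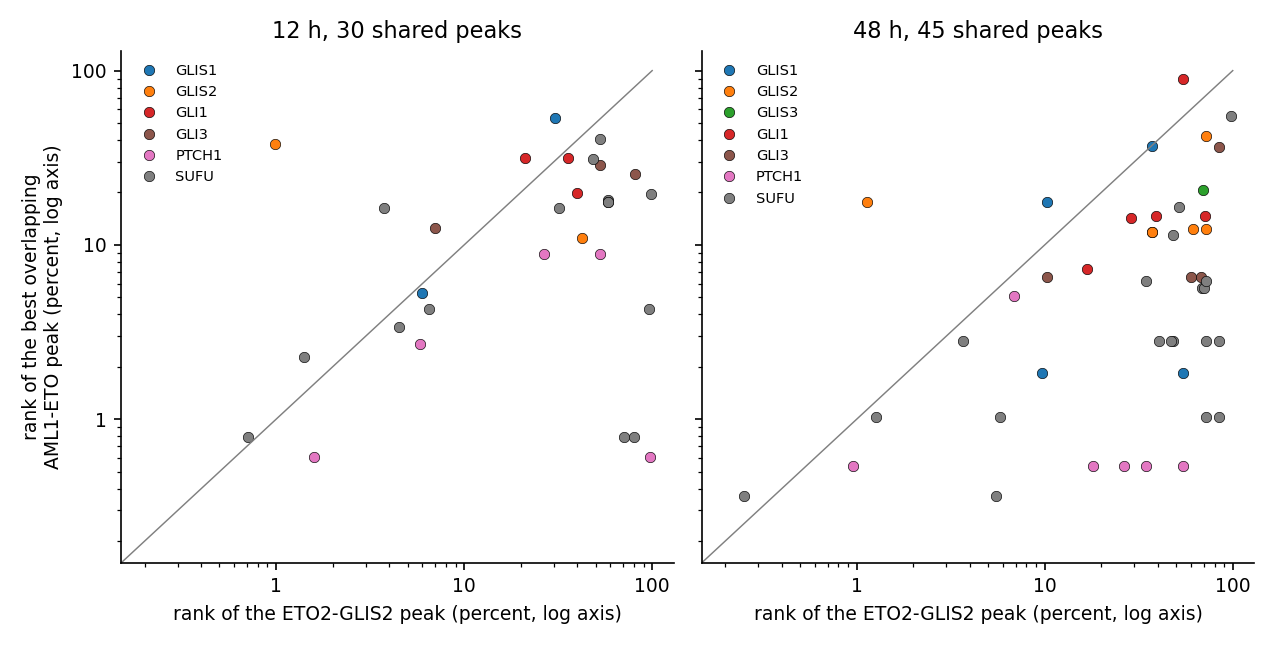
Rank in percent of the own list of each shared ETO2-GLIS2 peak (horizontal log axis) against the best-ranked AML1-ETO peak that overlaps it (vertical log axis), coloured by gene, with the line of equal rank. In 7 of 30 pairs at 12 h and 4 of 45 at 48 h the ETO2-GLIS2 peak had the better rank in percent. The GLIS2 upstream site did so most clearly at both times, and peaks in a row share 1 wide AML1-ETO peak. Percent ranks depend on list length, and the AML1-ETO lists are the longer ones. Some pairs have the opposite order by rank number, so these counts do not show which protein bound more strongly.

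Between 12 and 48 h, AML1-ETO kept 76.5% of its 12 h peaks at the 10 genes (65 of 85, 66.0 to 85.0%), and 35.0% of its 48 h peaks had been present at 12 h (42 of 120, 26.5 to 44.2%). For ETO2-GLIS2 the shares were 73.8% (31 of 42, 58.0 to 86.1%) and 52.7% (29 of 55, 38.8 to 66.3%). Over the whole lists they were 73.9%, 36.8%, 60.6% and 54.6%. Time and library cannot be told apart.

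For comparison of locations, every peak was also placed at every protein-coding gene by the same rule. AML1-ETO peaks of the 10 genes lay in introns in 56.5% (48 of 85) at 12 h and 67.5% (81 of 120) at 48 h, against 30.1% and 31.9% over all genes, and promoters took 10.6% (9 of 85, 4.96 to 19.2%) and 8.33% (10 of 120, 4.07 to 14.8%), against 18% and 13.7%. For ETO2-GLIS2, introns took 40.5% (17 of 42) and 38.2% (21 of 55), against 21.7% and 20.6%, and promoters 26.2% (11 of 42, 13.9 to 42.0%) and 20% (11 of 55, 10.4 to 33.0%), against 26.2% and 25.2%. The intron share was thus above that over all genes in each list. SUFU alone held 25 of the 48 and 39 of the 81 intronic AML1-ETO peaks. It also held 9 of the 17 and 9 of the 21 intronic ETO2-GLIS2 peaks. Of the 10 genes, 5 have bodies of about 130 kb or more, a property whose part was not tested. At each time the promoter intervals of the proteins overlapped. The summit lay within 1 kb of the start of another gene for 15 of 85 and 18 of 120 AML1-ETO peaks and for 8 of 42 and 14 of 55 ETO2-GLIS2 peaks, so these peaks cannot be assigned to 1 gene.

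The letters searched occurred at the 10 genes about as often as in the whole lists, and for each of the 6 sets of letters the exact 95% interval contained the share of the list in all 4 lists. Runt letters were in 21.2% of the 200 bp summit windows of AML1-ETO at 12 h (18 of 85, 13.1 to 31.4%) and 20% at 48 h (24 of 120, 13.3 to 28.3%), against 26.7% and 24.9% of all windows of these lists. For ETO2-GLIS2 they were in 21.4% (9 of 42, 10.3 to 36.8%) and 10.9% (6 of 55, 4.11 to 22.2%), against 23.2% and 21.9%. The GLIS core was in 14.3% (6 of 42, 5.43 to 28.5%) and 7.27% (4 of 55, 2.02 to 17.6%) of the ETO2-GLIS2 windows, against 7.72% and 7.89% of the lists, and in 5.88% (5 of 85) and 7.50% (9 of 120) of the AML1-ETO windows, against 4.23% and 3.83%. The E-box was in 18.8%, 19.2%, 11.9% and 20% of the windows, in the order of lists used so far, against 14%, 13.7%, 16.3% and 16.8%. AP-1 letters were in 2 AML1-ETO windows at each time (2.35% and 1.67%) and in no ETO2-GLIS2 window. In the whole lists 4.54%, 4.74%, 5.8% and 4.84% of windows held them, in the same order. The ETS letters were in no window of the 10 genes, where 0.579% to 1.38% of all windows held them. A match of letters is no proof of contact, and windows without a match say nothing about the factor.

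The other genes of both pathways were read by the same rule. Of 19 further Hedgehog genes, 17 had an AML1-ETO peak at each time and 14 and 15 an ETO2-GLIS2 peak. These are 89.5%, 89.5%, 73.7% and 78.9% of the 19, where 77.6%, 80.3%, 66.4% and 66.0% of all genes had a peak. BOC, a ligand co-receptor gene, had none in any list. Their best-ranked AML1-ETO peaks were at the starts of GSK3B (1.3% and 0.392%) and BTRC (1.12% and 0.427%), which encode a kinase and a ubiquitin ligase subunit that process GLI proteins, then in HHAT (3.65% at 12 h), the ligand acyltransferase gene. ETO2-GLIS2 had well-ranked peaks in the window of PRKACA (12.6% and 8.31%), the gene for a catalytic subunit of protein kinase A. Their summits lay outside the gene, 19345 and 19359 bp upstream of the nearest start. Others were in BTRC (13.2%) at 12 h and STK36 (9.31%), a GLI-regulating kinase gene, at 48 h.

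Of 28 further BMP genes, 19 and 21 had an AML1-ETO peak and 17 and 15 an ETO2-GLIS2 peak. These are 67.9%, 75.0%, 60.7% and 53.6% of the 28, each below the share of all genes just given. None was called in any list at BMP3, BMP5, BMP10, BMPR1B, GREM1 and SMAD9. The strongest AML1-ETO peaks were in the windows of ID1 (0.637% and 0.634%), SMAD4 (1.44% and 0.467%) and SMAD7 (2.54% and 1.06%). ID1 encodes a BMP-induced inhibitor of basic helix-loop-helix factors, SMAD4 the common SMAD and SMAD7 an inhibitory SMAD. The ID1 summits lay beyond the end of the gene, 5602 and 5594 bp downstream of its start. The strongest ETO2-GLIS2 peaks were at SMAD6 (0.664% and 0.502%), the other inhibitory SMAD, with summits 977 and 963 bp upstream of a start site. Next came ID3 (4.44% and 2.58%) and the ligand gene GDF5 (4.49% and 1.82%), ID3 ahead at 12 h and GDF5 ahead at 48 h. The ID3 summits lay beyond the end of the gene, 4312 and 4317 bp downstream of its start.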

How the data were processed

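Per the labels and the submitters' processing notes, the authors aligned reads to hg19 with Bowtie2 2.2.9, used SAMtools 1.7, and called peaks with MACS2 2.1.1.20160309, 1 list per ChIP library. Caller settings and duplicate removal are not given in the sources used here. The deposited lists give each peak's interval and summit, its fold enrichment over local background (a linear ratio), p-values and q-values as −log10, and a score derived from −log10 q. The smallest −log10 q was 1.30 to 1.31. The titles give 12 or 48 h, and these times were used where a treatment label names 48 h for every sample.

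Peaks on the 22 autosomes, X and Y were assigned to genes of GENCODE release 44 on GRCh37 by summit, within 20 kb. Location was taken in the order promoter (within 1 kb of any start site of the gene), exon, intron, upstream, downstream. Overlap meant at least 1 bp. Because fold and −log10 q depend on depth, peaks were compared by rank within their list. Shares have exact 95% Clopper-Pearson intervals (scipy 1.17.1) that cover counting error only, since neighbouring peaks are not independent. Code was tested on simulated intervals. Of a gene with over 6 peaks in a list, the 3 best-ranked were described singly. All 10 genes were named, and of the other pathway genes the 3 best-ranked of each list and those with no peak, except for 1 Hedgehog gene that is counted but not reported here. The genes, pathway lists and rules were chosen with earlier results of these data known. Alternatives were a stricter q, other windows, equal list lengths, joined peaks, stricter overlap, a wider promoter, ranking by fold and 100 bp motif windows.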

Additional observations from a re-analysis of the deposited data

How the results depend on the processing

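Counts of peaks depended on the threshold, and the number of genes with a peak did not leave 6 to 9 of 10 in any list or setting tried. At −log10 q of at least 5, AML1-ETO had 43 and 48 peaks at 12 and 48 h and ETO2-GLIS2 23 and 30. The shares overlapping the other protein were then 44.2%, 35.4%, 87.0% and 93.3%, and those present at the other time 88.4%, 54.2% and 66.7% (ETO2-GLIS2 at 12 h stayed within its interval). With each list held to its 28325 strongest peaks, AML1-ETO had 33 and 34 peaks and shared 60.6% and 55.9%. Joining peaks within 1 kb gave 49, 70 and 35 peaks (AML1-ETO at 12 and 48 h, ETO2-GLIS2 at 48 h), and the gene body alone gave 36 for ETO2-GLIS2 at 48 h. With summits within 200 bp, the shares overlapping the other protein fell to 16.5%, 12.5%, 33.3% and 27.3%, and those at the other time to 30.6%, 21.7% and 57.1% (ETO2-GLIS2 at 48 h stayed within its interval). Requiring 50% of the peak to be covered gave 7.50% and 20% for AML1-ETO at 48 h. Overlap shares of the whole lists were not computed under these alternatives. The comparison of the 10 genes with the whole lists was thus made at the main setting only. Promoters of 3 kb took 20% and 18.3% of AML1-ETO peaks. In 100 bp windows, which hold fewer letters, the E-box share was 10.6% and 10.0% for AML1-ETO and the Runt share 12.5% for AML1-ETO at 48 h and 9.52% for ETO2-GLIS2 at 12 h. The other 78 of 112 alternatives stayed within 1.5 times the count or within the 95% interval of the share. Leaving out the SUFU window, chosen after seeing the data, was among them. No paired analysis was possible because each protein and time has 1 ChIP library. Depth was not analysed, so a gene without a peak in the shorter ETO2-GLIS2 lists cannot be called unbound.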
